A study of Mus musculus with 6 samples.

Results

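Plexins and Robo4 are cell-surface receptors that read guidance cues. Of the 53509 rows of the count table, 7 were examined here, chosen because reads on them, when the rows are placed on the mouse genome, stand for 4 genes of this kind: Plxna2 (rows Cr1l, A330023F24Rik, Gm37132 and Gm16897), Plxna4 (the row of that name), Robo4 (row Gm47963) and, in part, Plxnd1 (the row of that name). The choice was made with the difference between the groups already known, so the levels below are a description and carry no test. Libraries were made from 6 samples of C57BL/6 mice, of which 3 were labelled wild type (control) and 3 carried the label of myocardial ischemia-reperfusion injury (MIRI, in which the blood supply of the heart muscle is stopped and then restored). The design text gave an age of 21 days for both groups. The tissue is given as retina in one field and as intervertebral disc in the extraction protocol, while the injury is one of the heart. In the names of the files the MIRI samples are mutants, so genotype and injury cannot be told apart, and no source says that the 3 samples of a group came from separate animals.

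Plexins are the main receptors of semaphorins, secreted or membrane-bound cues that were found as repellents of growing axons and that also steer migrating vascular and immune cells. A plexin has a large outer part that binds the semaphorin, often with a neuropilin as co-receptor, and a cytoplasmic part with a GTPase-activating domain that acts on small GTPases of the Ras family. Plexin-A2 and plexin-A4 are best known from neurons, and plexin-D1 from the endothelium, the cells that line blood vessels, where it receives semaphorin 3E. Robo4 is the member of the Roundabout family found mainly in endothelium, where it is tied to vessel stability. Robo1 and Robo2, of the same family, answer Slit proteins in growing axons.

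The 4 levels were lower in MIRI than in control in every library, and by very different amounts. The mean level in MIRI was 54.9% of that in control for Plxna2, 30.8% for row Plxnd1, 17.7% for Plxna4 and 1.34% for Robo4. A level is given in CPM, the count of a row or gene per 1000000 counts of its library. Control and MIRI did not overlap for any of the 4. Among all 5917 genes tested by position, 5.48% had groups that did not overlap with MIRI lower, and among the 15777 tested rows the share was 5.18%. Since these receptors were picked for this difference, nothing is read from that contrast. RNA was taken from whole samples, so fewer cells with a receptor and less of its RNA per cell cannot be told apart.

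Totals ran from 6859481 to 9250952 counts per library, so that 1 count stood for 0.108 to 0.146 CPM. Control 2 and MIRI 1 stood apart from the other 4 libraries. By the chi-square of their counts per degree of freedom they were nearer to each other (9.37) than to any other library (13.3 or more), while the other 4 lay at 4.31 to 7.46 from one another. Without both, the log2 ratio was -0.77 for Plxna2, -2.39 for Plxna4 and -1.76 for row Plxnd1, and Robo4 had 95 counts in control and 0 in MIRI, at least 27.1-fold lower against a floor of 3 counts over the group. In edgeR's quasi-likelihood test with Benjamini-Hochberg adjustment, 0 of 5917 genes were called higher and 0 (0% of those tested) lower at an adjusted p under 0.05, with a smallest adjusted p of 0.082. An unadjusted p under 0.05 was found for 97 genes (1.64%) in the higher and 175 (2.96%) in the lower direction, and DESeq2 called 9 higher and 48 lower. Of the marker lists, fibroblast genes made up 59220 to 82160 CPM in all 6 libraries. Of 10 photoreceptor genes, the mark of retina, 5 were measured and summed to 9.62 to 20.6 CPM. Most of that sum was 1 gene, Opn1sw, at 7.35 to 18.4 CPM. Of 10 disc and cartilage genes 2 were measured, at a sum of at most 1.92 CPM, and of 10 heart muscle genes 3, at a sum of at most 1.35 CPM with Myh6 at 0.

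The names of the rows and the genes they lie on differ, because the coordinates in the table are here read on the GRCm38 build. The build behind them is not given in the sources used here, so which gene a row measures rests on that reading. The rows for Plxna2 held 24433 bp in all, or 24007 bp once shared bases are counted once. Of these 2995 bp (12.5%) were exon and the remaining 87.5% intron of Plxna2. They touched 1287 of the 5682 coding bases of the gene (22.6%), which spans chr1:194618218-194816869 on the plus strand. Row Plxna4 lies partly on its own gene (chr6:32144268-32588192, minus strand). It held 211 coding bases, 1.5% of its 14103 bp, with 47.1% in introns and 51.4% beyond the gene. Row Gm47963 lies wholly inside Robo4 (chr9:37401897-37415115, plus strand), with 476 coding bases in 2144 bp and 76.8% in introns.

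**Figure D1:**
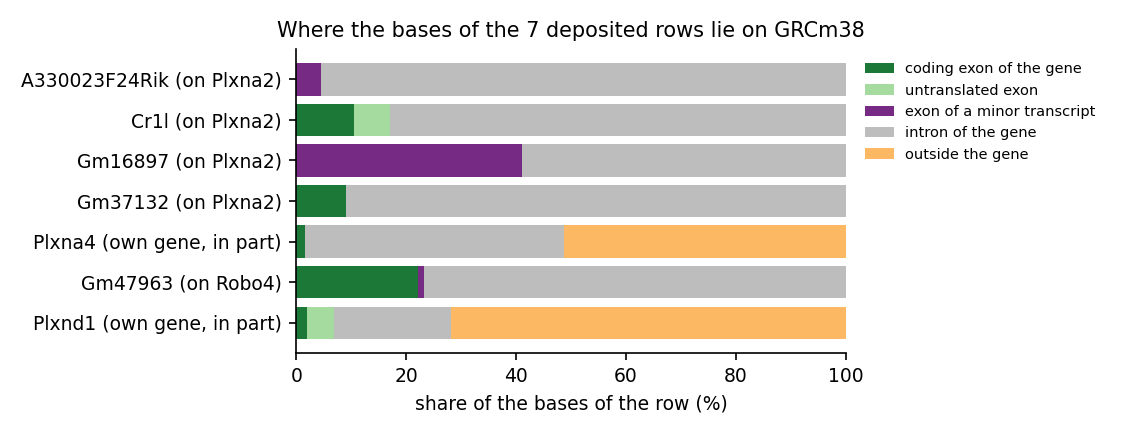
Share of the bases of each of the 7 deposited rows (horizontal axis, %) that lie on coding exon, untranslated exon, exon of a minor transcript or intron of the gene named in brackets, or outside it. Intron takes most of each row inside Plxna2 and Robo4, and rows Plxna4 and Plxnd1 have 51.4% and 71.8% of their bases outside the gene.

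Row Plxnd1 is the one that cannot be given to a single gene. Of its 7301 bp, 498 bp (6.82%) are exon of Plxnd1 (chr6:115954811-115995005, minus strand), of which 135 are coding and 363 untranslated. Outside the gene lie 5244 bp (71.8%), in part on exons of other genes. Its counts are therefore called row Plxnd1 throughout and not the level of Plxnd1.

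The coding exons below are those on which the reading of the rows rests, so that reads can be traced to them. They come from the GENCODE M21 transcripts on GRCm38, written 5′ to 3′ on the strand of the gene, and capitals mark the bases that lie inside a deposited row. Exon 30 of Plxna2 and exon 33 of Plxnd1 lie near the 3′ end of the coding sequence, in the stretch for the cytoplasmic part of a plexin. Row Cr1l holds all 213 bases of the former, and row Plxnd1 holds 135 of the 148 bases of the latter.
Plxna2 exon 30, chr1:194810062-194810274 (+): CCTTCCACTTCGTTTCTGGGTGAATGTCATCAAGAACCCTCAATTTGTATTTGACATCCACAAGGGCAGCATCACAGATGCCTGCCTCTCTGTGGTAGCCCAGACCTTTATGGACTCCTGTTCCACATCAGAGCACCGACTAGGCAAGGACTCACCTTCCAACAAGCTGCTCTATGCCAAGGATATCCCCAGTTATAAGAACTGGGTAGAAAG
Plxnd1 exon 33, chr6:115957526-115957673 (-): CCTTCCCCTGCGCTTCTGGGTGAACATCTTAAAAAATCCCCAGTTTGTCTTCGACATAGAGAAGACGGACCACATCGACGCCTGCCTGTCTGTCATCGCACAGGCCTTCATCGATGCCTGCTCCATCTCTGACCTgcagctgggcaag
Aligned without gaps, the 148 bases of the Plxnd1 exon matched the Plxna2 exon in 102 (68.9%).

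Exon 15 is held in full for Plxna2 and in its last 46 of 137 bases for Plxna4, and exon 16 of Plxna4 supplies the other 165 coding bases of row Plxna4.
Plxna2 exon 15, chr1:194788779-194788915 (+): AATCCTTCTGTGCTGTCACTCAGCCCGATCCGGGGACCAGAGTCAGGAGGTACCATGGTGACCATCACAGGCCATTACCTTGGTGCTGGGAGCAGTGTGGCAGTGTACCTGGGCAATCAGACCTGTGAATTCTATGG
Plxna4 exon 15, chr6:32202089-32202225 (-): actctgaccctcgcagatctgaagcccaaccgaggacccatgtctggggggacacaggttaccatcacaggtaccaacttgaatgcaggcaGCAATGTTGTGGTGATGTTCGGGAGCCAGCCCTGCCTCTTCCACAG
Plxna4 exon 16, chr6:32200810-32200974 (-): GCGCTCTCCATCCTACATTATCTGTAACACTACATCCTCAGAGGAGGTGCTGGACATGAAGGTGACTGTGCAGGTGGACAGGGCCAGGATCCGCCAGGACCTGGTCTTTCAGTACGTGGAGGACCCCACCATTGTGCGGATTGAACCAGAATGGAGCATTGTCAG
Both exons 15 have the same length and matched in 77 of 137 bases (56.2%). For Robo4, row Gm47963 holds exons 13, 14 and 15 of 18, and of the last 229 of 243 bases.
Robo4 exon 15, chr9:37410980-37411222 (+): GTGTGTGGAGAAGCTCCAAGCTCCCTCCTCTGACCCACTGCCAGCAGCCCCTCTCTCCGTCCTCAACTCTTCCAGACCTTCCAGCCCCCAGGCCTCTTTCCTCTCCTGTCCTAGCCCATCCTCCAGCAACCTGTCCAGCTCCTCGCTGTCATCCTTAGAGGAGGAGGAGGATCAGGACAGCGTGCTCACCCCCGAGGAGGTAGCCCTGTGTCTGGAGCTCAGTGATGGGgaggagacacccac
Stretches of 30 bases from the covered coding exons were searched in the transcripts of 14 other plexin and Robo genes. Of 962 such stretches of Plxna2, 153 of Plxna4, 389 of Robo4 and 106 of Plxnd1, 0 were found in another of these genes, so paralogs of the same families did not share these letters at that length.

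Plxna2, the receptor with the most counts, stood at 286 CPM in control 1, 321 in control 2 and 270 in control 3. In MIRI it stood at 154, 153 and 174 CPM. The 3 control libraries lay close together, 1.19-fold from lowest to highest, and the lowest control was 1.55-fold above the highest MIRI library. The means were 292 ± 26.1 CPM in control and 160 ± 11.7 in MIRI (SD, n = 3), a log2 ratio of -0.87 ± 0.10 (SE from the spread of the libraries). The spread within each group was 8.92% and 7.32% of its mean, and the difference between the means was larger than the SD of either group.

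The 4 member rows of Plxna2 kept their proportions. Row Cr1l gave 66.8% ± 1.74 (SD, n = 3) of the Plxna2 counts in control and 66.9% ± 1.24 in MIRI. Row A330023F24Rik gave 19.0% ± 0.75 and 18.7% ± 1.3, row Gm37132 gave 10.1% ± 0.61 and 10.1% ± 0.98, and row Gm16897 gave 4.04% ± 0.85 and 4.28% ± 0.57. These shares differed between the groups by less than 1 SD for each of the 4 rows. The 4 log2 ratios ran from -0.79 (Gm16897) to -0.89 (A330023F24Rik), with -0.86 for both Cr1l and Gm37132. Rows Gm16897 and A330023F24Rik share 426 exon bases of a minor transcript, and read pairs on bases of more than 1 row are left uncounted by featureCounts unless it is told otherwise, so neither row measures that stretch.

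A further 7 rows with counts touch Plxna2 without being members, and they hold other bases of the same gene in the same libraries. They are thus not independent of the member rows. Altogether 13 rows touch the gene, 11 of them with counts. All 7 rows that are not members were lower in MIRI, 6 with groups that did not overlap. Among all 15777 tested rows, 5.18% had groups that did not overlap with MIRI lower. Their log2 ratios had a median of -0.86 and ran from -1.07 to -0.42. At the upper end of that range was row Cd34, near the start of the gene, at 12.6, 15.7 and 9.84 CPM in control and 5.25, 8.31 and 14.9 in MIRI, where the groups overlapped. Row Cd46, with 47 coding bases, stood at 60.8 ± 2.2 CPM in control and 32.3 ± 0.98 in MIRI, a log2 ratio of -0.91. Row 9630010A21Rik, in an intron, had -0.82, row Gm37366 -0.86, row Gm37027 -0.95 and row Gm32250 -0.67.

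Rows on intron bases alone had ratios near that of the whole gene. In the 6 rows with no exon base of the gene, the median log2 ratio was -0.84 (-1.07 to -0.42). All 6 were lower, 5 without overlap, where the share over all tested rows was 5.18%. The level in these intron rows was 1.75 to 16.45 CPM per kb of row in control and 1.3 to 8.88 in MIRI. Intron reads stand mainly for RNA that has not been spliced, and in a row that holds exon and intron they cannot be separated from exon reads. Row Gm37334, with the log2 ratio of -1.07, lies on Gm38036, a gene model inside an intron of Plxna2, and the counting used no strand, so its reads may belong to either. Rows Mir29b-2 and Mir29c, placed in the gene by their coordinates, had 0 counts in all libraries.

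**Figure D2:**
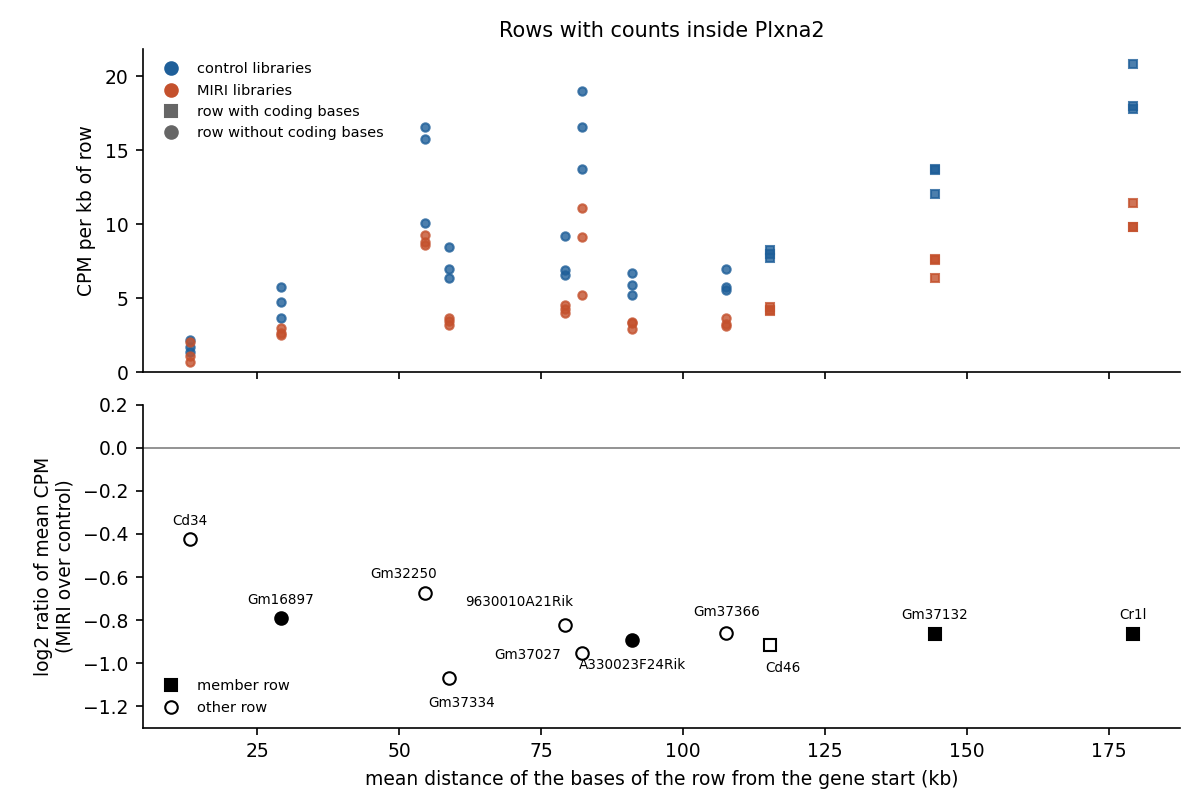
Rows with counts inside Plxna2, placed by the mean distance of their bases from the start of the gene (kb). The upper panel gives the level of each library (CPM per kb of row) and the lower panel the log2 ratio of mean CPM, with filled symbols for the 4 member rows. Every row lies below 0, from -1.07 to -0.42.

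Plxna4, the receptor that answers class 3 semaphorins together with neuropilins and class 6 semaphorins directly, was counted far less. Row Plxna4 had 38, 92 and 96 counts in control 1 to 3 and 15, 12 and 9 counts in MIRI 1 to 3. As levels these were 5.15, 12.6 and 10.4 CPM in control and 2.02, 1.75 and 1.22 CPM in MIRI. Control 1 was the low one of its group, by 2.45-fold against control 2, and MIRI 1 the high one of the injured group, and the groups did not overlap. The means were 9.37 ± 3.83 and 1.66 ± 0.41 CPM (SD, n = 3), a log2 ratio of -2.5 ± 0.40 (SE).

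The introns of the gene also hold 3 rows named for antisense transcripts and 1 row named for a small predicted gene. As with other rows, the name need not match the RNA at that position. Row Plxna4os1 had 6, 39 and 38 counts in control and 8, 3 and 3 in MIRI, so control 1 lay below MIRI 1. Row Plxna4os2 had 14, 53 and 28 counts against 4, 4 and 2, with no overlap and a log2 ratio of -3.13. Row Plxna4os3 had 2, 6 and 9 against 1, 2 and 0 counts, and row Gm13852 had 4, 0 and 8 against 0, 1 and 0. The 3 rows with at least 20 counts in the gene that are not members were lower in MIRI by mean. Their log2 ratios were -3.13 to -2.28, and 1 of the 3 had groups that did not overlap, where the share over all tested rows was 5.18%. Because the counting used no strand, reads of any antisense RNA at these rows and of the unspliced Plxna4 RNA cannot be told apart.

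Row Plxnd1, whose bases lie partly on Plxnd1 and mostly outside it, had 298, 507 and 756 counts in control and 170, 113 and 145 in MIRI. Its level was 40.4, 69.4 and 81.7 CPM in control and 22.9, 16.5 and 19.6 CPM in MIRI. Again control 1 was the lowest control and MIRI 1 the highest MIRI library, without overlap. The means were 63.8 ± 21.2 and 19.7 ± 3.2 CPM (SD, n = 3), a log2 ratio of -1.7 ± 0.31 (SE). How many of its reads were of Plxnd1 and how many of other genes cannot be told apart.

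Robo4 was close to the limit of counting in MIRI. Row Gm47963 had 28, 66 and 67 counts in the controls and 2, 0 and 0 in MIRI, or 161 against 2 over each group. As levels these were 3.79, 9.04 and 7.24 CPM in control and 0.27, 0 and 0 CPM in MIRI. All reads of the injured group thus came from MIRI 1, and every control was above it. A count of 0 allows a level of up to 3 counts, which is 0.437 CPM in MIRI 2 and 0.406 CPM in MIRI 3. The ratio of the pooled levels was 72.9-fold lower in MIRI, with an exact 95% binomial interval of 19.85 to 607 (counting error alone). The means were 6.69 ± 2.67 and 0.09 ± 0.16 CPM (SD, n = 3).

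The only other row on Robo4 had the same direction. Row Msantd2 holds 150 coding bases of Robo4 near its start and 61 bp of Robo3, with 3421 bp outside Robo4. It had 19, 38 and 60 counts in control and 7, 1 and 3 in MIRI, which do not overlap, at a log2 ratio of -3.26. By contrast, the rows named Robo4 and Plxna2 do not lie on exons of those genes. Row Robo4 lies on Gm34885 and Ccdc15 and had 107, 92 and 132 counts in control and 127, 59 and 97 in MIRI, while row Plxna2 overlaps no exon and had 0, 0 and 1 against 1, 0 and 1. Under the deposited names, then, the groups overlapped for Robo4 and Plxna2 had almost no reads.

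**Figure D3:**
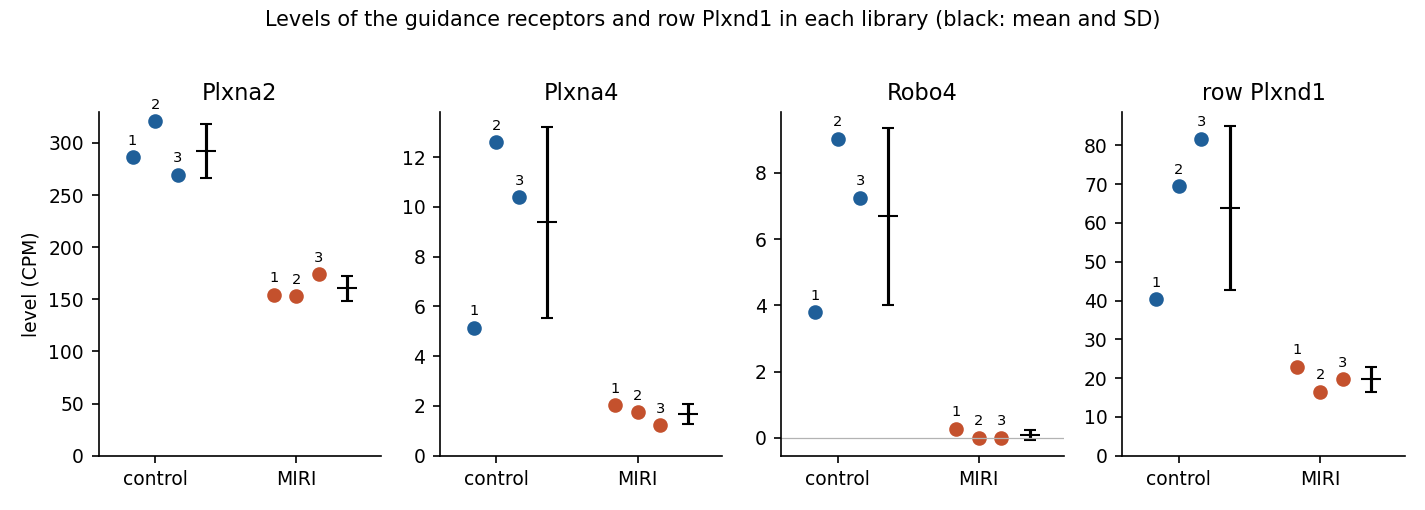
Level of Plxna2, Plxna4, Robo4 and row Plxnd1 (CPM) in the 3 control and 3 MIRI libraries, 1 panel a gene or row with its own linear axis, points numbered by library, and the mean and SD in black. In each panel all MIRI points lie below all control points; control 1 is the lowest control for row Plxnd1, Plxna4 and Robo4 but not for Plxna2.

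Per length of row, the order in control was Plxna2 at 12.0 ± 1.07 CPM per kb (SD, n = 3), row Plxnd1 at 8.74 ± 2.91, Robo4 at 3.12 ± 1.24 and Plxna4 at 0.66 ± 0.27. Plxna2 and row Plxnd1 were not apart beyond their spread, since control 3 had 11.03 CPM per kb for the former and 11.2 for the latter. Robo4 lay below row Plxnd1 and above Plxna4 in each control. In MIRI the order was Plxna2 at 6.56 ± 0.48, row Plxnd1 at 2.69 ± 0.44, Plxna4 at 0.12 ± 0.03 and Robo4 at 0.04 ± 0.07 CPM per kb. Robo4 and Plxna4 were not apart there, with 0.13 and 0.14 CPM per kb in MIRI 1. The rows differ in their share of intron, so a level per kb is one of the row and not of the mature RNA.

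Promoters are shown as a description. The 4 levels were picked for being lower in MIRI, so their shared direction is no ground for a shared site. Row Plxnd1, moreover, is not the level of Plxnd1. Each promoter is the 250 bases before the start of the gene in RefSeq (GRCm38.p6). RefSeq had an entry for 3 of the 4 genes and none for Plxna4. For Plxna2 and Robo4 this start differs from that of the GENCODE spans used for the rows. The Plxna2 stretch lies inside the span, which starts at 194618218, and the Robo4 stretch runs past the span start at 37401897. The matches below therefore depend on which start is taken. Capitals mark GGAA or its reverse complement TTCC, the core of the sites of ETS factors, a family that includes regulators of endothelial genes.
Plxna2 promoter, chr1:194619579-194619828 (+): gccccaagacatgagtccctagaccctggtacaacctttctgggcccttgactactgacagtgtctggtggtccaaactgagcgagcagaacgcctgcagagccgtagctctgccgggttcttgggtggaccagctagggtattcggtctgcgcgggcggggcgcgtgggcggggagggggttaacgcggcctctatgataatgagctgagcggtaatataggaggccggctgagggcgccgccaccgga
Robo4 promoter, chr9:37401722-37401971 (+): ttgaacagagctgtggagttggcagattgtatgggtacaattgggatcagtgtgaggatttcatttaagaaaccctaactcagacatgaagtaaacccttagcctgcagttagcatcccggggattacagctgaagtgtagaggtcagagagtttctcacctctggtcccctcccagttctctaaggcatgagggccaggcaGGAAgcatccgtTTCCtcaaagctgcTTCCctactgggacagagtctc
Plxnd1 promoter, chr6:115995006-115995255 (-): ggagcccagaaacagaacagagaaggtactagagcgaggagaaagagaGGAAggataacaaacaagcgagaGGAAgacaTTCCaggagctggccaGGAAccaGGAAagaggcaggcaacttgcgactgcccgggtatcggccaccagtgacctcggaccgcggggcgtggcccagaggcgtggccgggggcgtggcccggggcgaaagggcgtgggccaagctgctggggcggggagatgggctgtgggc
The core was found 0 times for Plxna2, 3 times for Robo4 and 5 times for Plxnd1, against a median of 3 over 32851 promoters of the same length, of which 93.4% hold it. At least 5 matches were present in 18% of promoters and at least 3 in 54.7%. The KLF-type box CCACCC (or GGGTGG), present in 28.1% of promoters, was found once for Plxna2 and in neither of the others. The GATA-type AGATAA (or TTATCT), in 10% of promoters, was in none of the 3. The GC box GGGCGG (or CCGCCC), in 32.7%, was found 2 times for Plxna2 and 1 time for Plxnd1. The GC content was 62.8% for Plxna2, 64.8% for Plxnd1 and 49.6% for Robo4. A match of letters is not a bound site.

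Across the 6 libraries the levels were correlated, but Plxna2 differed in its order within the groups. Plxna2 was lowest in control 3 and highest in MIRI 3 of their groups. Plxna4, Robo4 and row Plxnd1 were lowest in control 1 and highest in MIRI 1. Pearson's r of the log2 level was 0.98 between Plxna4 and Robo4, 0.97 between Plxna4 and row Plxnd1, and 0.97 between Robo4 and row Plxnd1. With Plxna2 it was 0.91 for Plxna4, 0.94 for Robo4 and 0.90 for row Plxnd1. These values are descriptions over 6 libraries in 2 groups that lie apart, so the group difference itself sets most of their size. The receptors were picked for that difference.

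Of the 5917 genes tested, those closest to Plxna2 by the same measure were Ghr, the growth hormone receptor, at r of 0.99, the intronic Gm38036 at 0.99, Exosc3, a subunit of the RNA exosome, at 0.97, Fam167b at 0.97 and Rnf214 at 0.97. Ghr stood at 760 ± 41.4 CPM in control and 542 ± 40.3 in MIRI (SD, n = 3), a log2 fold change of -0.48 ± 0.10 (SE), which as a ratio is smaller than that of Plxna2. Within the groups, the r of the deviations from the group means was 0.87 for Ghr, 0.98 for Rnf214, 0.65 for Gm38036, 0.50 for Fam167b and 0.32 for Exosc3. For Plxna4 the closest included Emcn (endomucin, a surface sialomucin of endothelium) at 0.99, Selp (P-selectin, which captures leukocytes on endothelium) at 0.99, Stab1 (a scavenger receptor of sinusoidal endothelium and macrophages) at 0.98, and Robo4. For Robo4 they were 9630013D21Rik at 0.99, Emcn, Gimap1 and Selp at 0.98, and Plxna4. For row Plxnd1 they included Sh3tc1 and Fgd5 (an endothelial guanine nucleotide exchange factor) at 0.98, and Emcn and Pgf (placental growth factor) at 0.97.

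Endothelial markers were set beside the receptors because plexin-D1 and Robo4 are known from endothelial cells. Of 20 listed, 6 were measured by position, and all 6 had a level below control in MIRI, 5 with groups that did not overlap (5.48% of all genes tested). None passed in edgeR's test: the adjusted p was 0.187 for Pecam1, 0.216 for Tie1, 0.218 for Emcn, 0.242 for Vwf, 0.286 for Tek and 0.9996 for Eng. The unadjusted p was under 0.05 for 5 (2.96% of all genes, in the lower direction), and DESeq2 called 4 of the 6 lower. The median log2 fold change of the 6 was -4.22, beside 0.01 over all 5917 genes. Emcn, with 0 counts in each MIRI library, passed the filter on low counts through its control libraries. The same holds for Tie1 (43, 0 and 8 counts in MIRI) and Vwf (41, 7 and 12). These genes are among the 5 without overlap and the 5 with an unadjusted edgeR p under 0.05, and they enter the median. The fitted value of Emcn, -7.80, depends on the prior count, and the other markers ran from -4.95 (Tie1) to -0.38 (Eng).

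The endothelial markers ranged from 0% to 76.2% of control, and the 3 receptors with row Plxnd1 from 1.34% to 54.9%. Pecam1, an adhesion molecule of endothelial junctions, stood at 74.8, 355 and 242 CPM in control and 19.1, 1.75 and 4.33 in MIRI. Emcn had 11, 42 and 35 counts in control and 0 in each MIRI library. Vwf, the clotting protein von Willebrand factor, stood at 7.62% of control, Tie1, a receptor kinase, at 3.16%, its relative Tek, the angiopoietin receptor, at 45.2%, and Eng (endoglin, a co-receptor of the TGF-beta family) at 76.2%, with groups that overlapped. Plxna2, at 54.9%, thus lay between Tek and Eng. Robo4, at 1.34%, rests on 2 counts in MIRI and cannot be ranked against Emcn, Tie1 and Pecam1 (3.75%).

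Some endothelial markers had the same lowest control and highest MIRI library as 3 of the levels above. Control 1, the lowest control for Plxna4, Robo4 and row Plxnd1, was also the lowest for each of the 6 markers. For Tek it was nearly level with control 2 (9.21 and 9.31 CPM). The summed level of the 6 markers was 316 CPM in control 1 against 794 and 648 in control 2 and 3. MIRI 1, the highest MIRI library for Plxna4, Robo4 and row Plxnd1, was the highest for Pecam1, Vwf and Tie1. Tek was highest in MIRI 2 (5.54 CPM, against 4.57 in MIRI 1 and 4.47 in MIRI 3), Eng was lowest in MIRI 1, and Emcn was at 0 in all 3. The sum of the 6 markers in MIRI 1, 172 CPM, was the lowest of the MIRI group (219 and 210 in the others), since Eng makes up most of that sum. Plxna2 did not follow this order, being lowest in control 3 and highest in MIRI 3 of their groups. The part of endothelial RNA in the receptor levels was not tested. Other marker sums lay in ranges that overlapped for mural cells (116 to 176 CPM in control, 132 to 182 in MIRI), macrophages (86.1 to 134, and 93.6 to 146) and fibroblasts. Markers of lymphatic endothelium summed to 122 to 137 CPM in control and 141 to 182 in MIRI. That sum was Pdpn alone, since Ccl21a, the other marker measured, had 0 counts in all libraries. Markers of neurons and glia summed to 0.95 to 1.19 CPM in control and 1.61 to 2.44 in MIRI. Most of that sum was 1 gene, Slc1a3, at 0.81 to 1.1 CPM in control and 1.61 to 2.3 in MIRI. The 2 disc and cartilage markers measured were not tested. They summed to 0.81, 1.92 and 0.32 CPM in control and 0.13, 0 and 0 in MIRI. Acan (aggrecan, the main proteoglycan of cartilage) gave 6, 12 and 3 counts in control and 0 in each MIRI library. Krt19 gave 0, 2 and 0 counts in control and 1, 0 and 0 in MIRI. A count of 0 allows up to 0.437 CPM in MIRI 2 and 0.406 in MIRI 3. Both exceed the sum in control 3, so the groups are not shown to be apart. The part of such tissue in the receptor levels was not tested. The 4 Y-linked genes measured summed to 1.51 to 6.59 CPM in control and 26.2 to 310 in MIRI, each without overlap, and the part of sex or of mixed animals in the receptor levels was not tested.

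**Figure D4:**
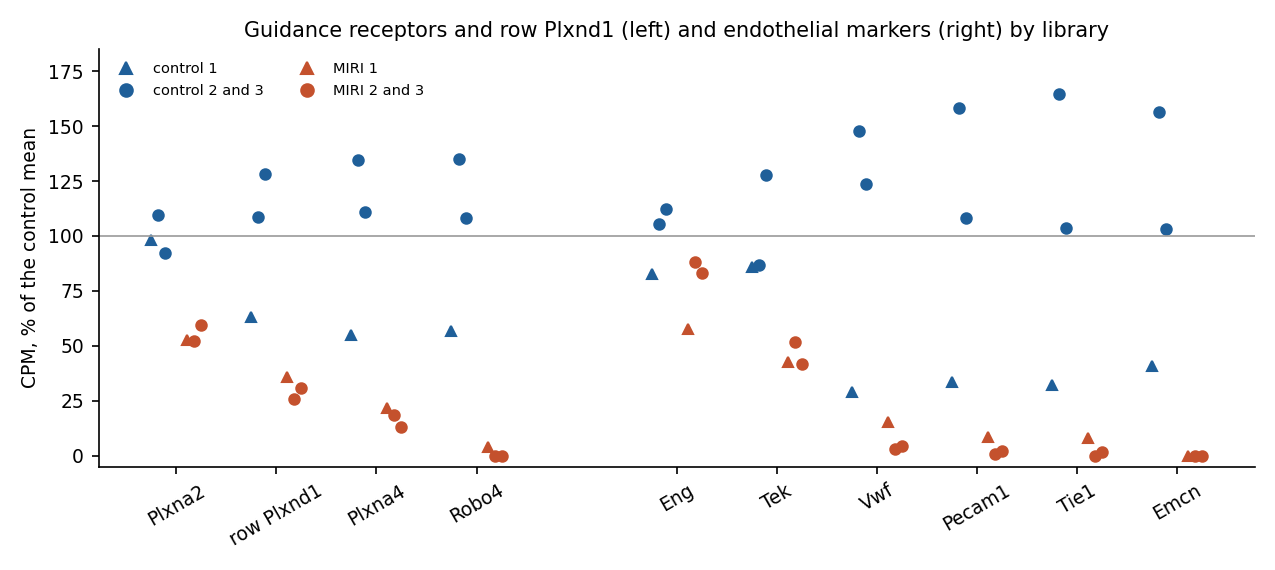
Level of each library as a percentage of the control mean (vertical axis, linear) for the 3 receptors and row Plxnd1 on the left and the 6 tested endothelial markers on the right, with triangles for control 1 and MIRI 1. Plxna2 shows tight groups, while control 1 lies at the bottom of the controls for row Plxnd1, Plxna4, Robo4 and all 6 endothelial markers. For Tek it is nearly level with control 2.

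The other guidance genes lay on both sides of 0. A list of 102 guidance genes (plexins, neuropilins, semaphorins, Robos, Slits, netrins with their receptors, ephrins, Eph receptors and cytoplasmic partners) had 48 members measured by position and 36 tested, 3 of which are Plxna2, Plxna4 and Robo4. Robo4 and Plxna4 (15, 12 and 9 counts in MIRI for the latter) passed the filter on low counts through their control libraries. Of the 33 others tested, 18 had a fitted log2 fold change below 0 and 15 above, with a median of -0.03, beside 0.01 over all genes tested, and a median of 0.13 without control 2. In edgeR's test 0 of the 33 were called, 2 had an unadjusted p under 0.05, and DESeq2 called 0. Groups did not overlap for 2 with MIRI lower and 3 with MIRI higher, where the shares over all genes were 5.48% and 3.46%.

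Among the receptors, Plxna1, the class A plexin nearest in kind to Plxna2 and Plxna4, stood at 291, 297 and 322 CPM in control and 326, 371 and 343 in MIRI. Its groups did not overlap, with MIRI higher, whereas Plxna2 and Plxna4 were picked for being lower. It had a log2 fold change of 0.20 ± 0.11 (SE) and an edgeR adjusted p of 0.9996. Plxna3, the remaining class A plexin, was not measured. Plxnb1, a receptor of semaphorin 4D, stood at 10.3, 16.98 and 8.54 CPM in control and 28.5, 12.2 and 11.2 in MIRI, with a log2 fold change of 0.54 ± 0.38 that was 0.03 ± 0.30 without MIRI 1. Robo1, a Slit receptor, stood at 21.5 ± 3.49 CPM in control and 21.6 ± 2.57 in MIRI (SD, n = 3), with a log2 fold change of 0.02 ± 0.17 (SE). Robo2 was not tested, with 6, 5 and 32 counts in control and 6, 6 and 4 in MIRI.

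The cues themselves were measured in part. Neither of the 2 neuropilins nor semaphorin 3E had a row by position. Of 20 semaphorins 11 were measured and 7 tested, of which 2 were below 0 and 5 above. Sema3a, a class 3 ligand of plexin-A and neuropilin, stood at 154 ± 68.7 CPM in control and 149 ± 54.3 in MIRI (SD, n = 3). Sema4d, the ligand of plexin-B1, had 0.90 ± 0.31 and 1.75 ± 0.13 CPM with groups that did not overlap, and a log2 fold change of 0.93 ± 0.39 (SE, unadjusted p of 0.0432, edgeR adjusted p of 0.9996). With 8, 4 and 10 counts in control and 14, 12 and 12 in MIRI, it passed the filter on low counts through its MIRI libraries. Slit2 and Slit3, the ligands of Robo1 and Robo2, had log2 fold changes of 0.12 ± 0.18 and 0.68 ± 0.48.

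Of the other receptors and partners, Ntn4, a netrin of basement membranes, stood at 31.4 ± 5.1 CPM in control and 23.1 ± 5.49 in MIRI (SD, n = 3), and Arhgef12, a guanine nucleotide exchange factor that binds plexin-B, at 97.2 ± 0.29 and 84.6 ± 6.29. Both had groups that did not overlap, with log2 fold changes of -0.43 ± 0.22 and -0.19 ± 0.11 (SE). Ephb2, an ephrin receptor, was at 26.4 ± 3.74 and 33.3 ± 3.41 CPM, with a log2 fold change of 0.35 ± 0.16. None of the 3 passed (edgeR adjusted p of 0.9996 for each). Ephb4, the receptor of ephrin-B2 on veins, was chosen to be named after its values were seen, as the other gene beside Sema4d with an unadjusted p under 0.05. It stood at 97.9 ± 11.8 and 80.4 ± 5.82 CPM with groups that overlapped, a log2 fold change of -0.28 ± 0.11 (SE, unadjusted p of 0.0394, edgeR adjusted p of 0.9996).

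**Figure D5:**
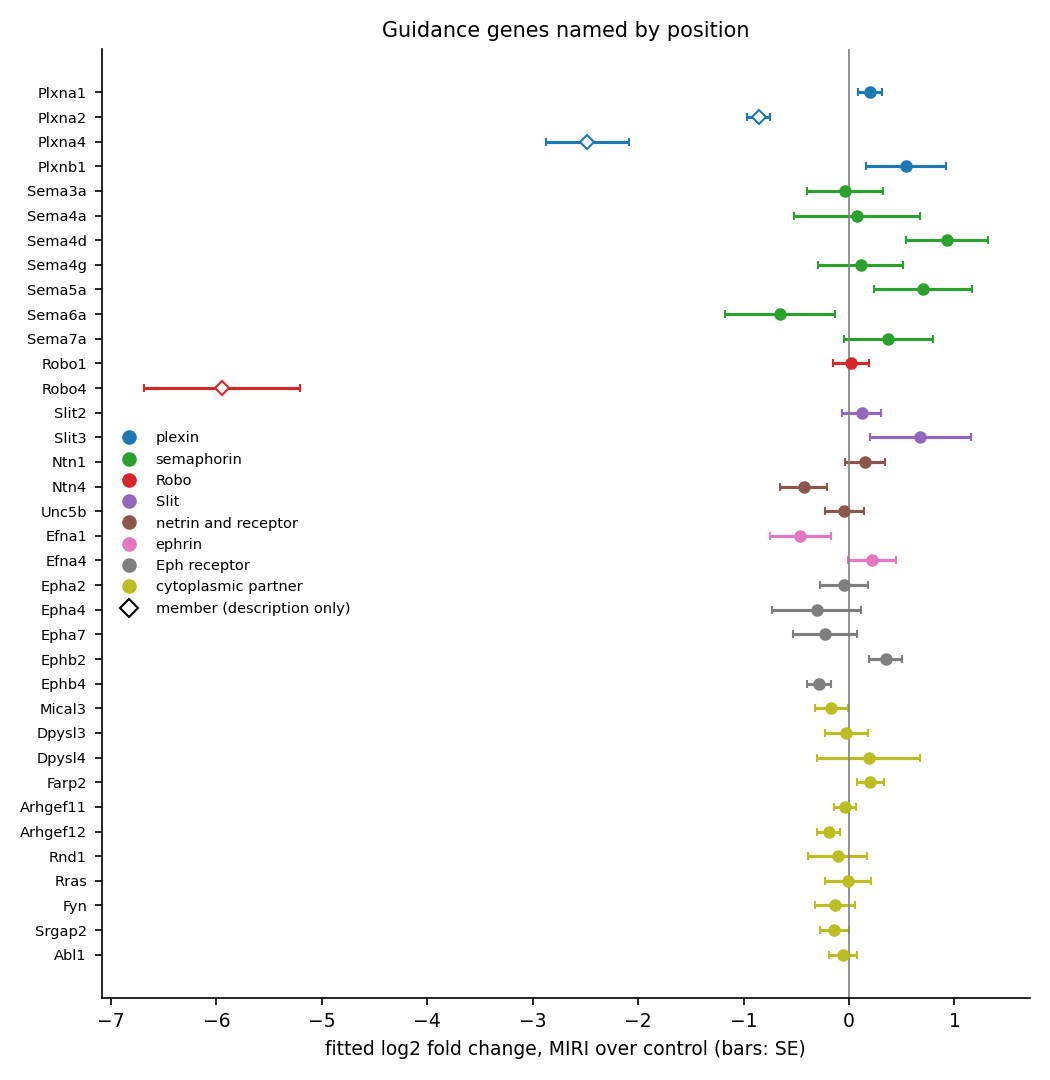
Fitted log2 fold change of MIRI over control (horizontal axis, bars SE) for the 36 guidance genes tested, coloured by role, with open diamonds for Plxna2, Plxna4 and Robo4, which are given as a description. The 33 others lie between -0.65 and 0.93; the fitted value of Robo4 depends on the prior count, since 2 MIRI libraries had 0 counts.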

How the data were processed

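Total RNA of 6 mouse samples (3 control, 3 MIRI) was sequenced from TruSeq libraries, per the labels' protocols. The deposited counts are whole numbers of read pairs per row. Per the file headers they come from featureCounts 2.0.1, which summed exons under each gene name and used no strand option. The authors also deposited FPKM values, which are proportional to the count divided by row length and by the squared library total, and which were used only as an alternative. Bowtie 0.12.2 and the builds mm9 and mm8 are listed in the submitters' processing notes. The aligner, build and annotation behind these counts are not given in the sources used here. Altogether the series table held 53509 rows, equal to the sample files in each library.

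Row coordinates were read on GRCm38 with GENCODE M21. A row was given to a gene that holds at least 80% of the exon bases the row overlaps and at least 50 bp (14930 rows, 11910 genes, 61.4% of counts), and counts were summed per gene. Row Plxnd1 meets this for no gene, and its overlap with other genes is not reported here. Tests across genes used edgeR 4.0.16 (quasi-likelihood, TMM, default low-count filter, two-sided, Benjamini-Hochberg over all 5917 genes or 15777 rows, threshold 0.05) in R 4.3.3, after a check on simulated counts, with DESeq2 1.42.0 as an alternative. A p-value here covers only the spread among the 6 samples, part of which may be technical. CPM are counts per 1000000 of the library total. SE of a log2 ratio come from the SD of both groups. The exact interval of a ratio of summed counts is at 95% and was computed with scipy 1.17.1. Likeness was taken on log2 CPM (prior count 2).

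The 7 rows, the gene lists (102 guidance genes and 10 marker lists) and the naming by position were chosen with earlier results of these data known. The genes named are the member rows and all rows with at least 1 count touching the 4 genes, genes among the 5 most alike to each receptor, guidance genes whose groups did not overlap, plexins, neuropilins, Robos and Slits in any case, and the tested endothelial markers. Alternatives were other scalings, tests, filters, naming rules, a replicate block and leaving out each library. No reference protein table was used.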

Additional observations from a re-analysis of the deposited data

How the results depend on the processing

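The log2 ratios of Plxna2, Plxna4, Robo4 and row Plxnd1 stayed below 0 and within 1 SD of the reported value in all 47 alternatives that gave a value. Among these were other scalings, deposited FPKM, other rows of the gene, medians and libraries left out. As the groups do not overlap, leaving out libraries or taking medians could not change the sign, so the sign carries no support. For Robo4 the SD in MIRI was 173% of its mean, so staying within 1 SD says little there. Leaving out each library gave -0.93 to -0.79 for Plxna2, -2.79 to -2.22 for Plxna4, -1.94 to -1.48 for row Plxnd1 and -6.5 to -5.64 for Robo4, which has no value without MIRI 1 or as a ratio of medians, since the remaining counts are 0. Same-numbered libraries deviated from their group means with correlations of -0.17, -0.31 and 0.21, where control 2 with MIRI 1 had 0.44, so the numbers were not taken to pair samples. With the replicate number as a block, the mean log2 ratios were -0.86, -2.43 and -1.65 for Plxna2, Plxna4 and row Plxnd1, and edgeR called 0 genes in each direction. The endothelial median was then -4.17. The counts of calls depend on the test. By position, 0 higher and 0 lower became 9 and 48 with DESeq2, 4 and 28 without a low-count filter, and 0 to 14 lower when leaving out each library (14 without control 1, 2 without control 2, 1 without control 3). Over rows, 0 and 0 became 8 and 77 with DESeq2, 124 and 231 without a filter, and 0 to 31 lower when leaving out each library (31 without control 1). Of the endothelial markers, 4 were called lower with DESeq2 (Emcn, Pecam1, Tek, Vwf), 4 without a filter (Emcn, Pecam1, Tie1, Vwf) and 1 without control 1 (Vwf), and their median ran from -5.41 (without MIRI 1) to -3.81 when leaving out each library and was -3.7 when rows were named from 50% of their exon bases. The guidance median ran from -0.061 to 0.13 (the latter without control 2), with 0 genes called in each setting run. An alternative chosen after seeing the data left out both control 2 and MIRI 1. It gave 1 call higher and 0 lower by position, 1 and 0 over rows, 0 endothelial calls, an endothelial median of -5.01 and a guidance median of 0.084. The causes were not tested. Depth limits Robo4 and the small Plxna4 rows, where 1 count is 0.108 to 0.146 CPM.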
